A study of Mus musculus with 6 samples.

Results

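The genes described here are 36 genes of astrocyte identity and metabolism in the prefrontal cortex of the mouse. They were taken by gene symbol from a list of genes that mark astrocytes or serve their metabolism. This list and the other lists used below were chosen with earlier results of these data known. All 36 genes were found among the 54429 rows of each library. RNA was measured in 6 libraries of bulk prefrontal cortex from mice aged 6 to 8 weeks. In the control group, 3 libraries came from tissue injected with an adeno-associated virus of serotype AAV9 that carries GFP, a fluorescent protein. In the other group, 3 libraries came from tissue injected with AAV9 that carries a short hairpin RNA against Kmt5b, a histone H4 lysine methyltransferase gene linked to autism. The samples are labelled C57BL6/J, whereas the design text names a C57BL/6 x C3H cross and counts 2 GFP mice. Both groups therefore share the injection and the serotype and differ in the cargo. The promoter that drives each cargo and the cells that took up the virus are not given in the sources used here. P-values measure only the spread between these libraries, which may be partly technical.

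Astrocytes are the glial cells that clear glutamate and potassium from the space around synapses. They take up glutamate through dedicated transporters, convert it to glutamine and return it to neurons. They are joined into networks by connexin channels, hold most of the brain's glycogen, and secrete lipoproteins and matrix proteins. After injury they become reactive, with more of the intermediate filament proteins GFAP and vimentin and less of some genes of their resting state.

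Total counts were 29490771 to 74723284 per library. Kmt5b itself, the targeted gene, stood at 86.5, 79.7 and 80.9 CPM (counts scaled to the library total) in the GFP libraries and at 68.5, 80.3 and 63.9 CPM in the Kmt5b shRNA libraries. Replicate 2 of the Kmt5b shRNA group thus lay within the GFP range, and the edgeR adjusted p was 0.303. Groups are named here as labelled. Intronless gene copies took 1.08% to 1.11% of counts in the GFP libraries and 0.236% to 0.242% in the Kmt5b shRNA libraries, with no overlap. That difference and the treatment cannot be told apart, so 34 of the 36 genes, all but Glul and Cbs, were also tested in a fit of protein-coding genes that share no sequence with another gene.

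All 36 genes passed the filter on low counts. At an adjusted p under 0.05 in edgeR's quasi-likelihood test, 4 were lower in the Kmt5b shRNA libraries and 1 was higher. The lower genes were the connexin genes Gja1 and Gjb6, the amino acid transporter gene Slc7a10 and the clusterin gene Clu, and the higher gene was Cbs. Of the 24419 genes tested, 8.46% were called, 5.69% lower and 2.77% higher, against 13.9% of the 36. The 36 were chosen with earlier results of these data known, so their shares cannot be read as a result about astrocyte genes at large. DESeq2 and limma voom called the same 5 genes, in fits where they called 9.89% and 8.36% of all genes. The median log2 fold change of the 36 was -0.15, with a range of -0.63 to 0.52, and 27 lay below 0. Over all genes tested the median was -0.02, and 52.7% lay below 0. The groups did not overlap in 14 of the 36 genes, with the GFP libraries above in 11 and the Kmt5b shRNA libraries above in 3. Among all genes tested the groups did not overlap in 22.5%, with the Kmt5b shRNA libraries below in 12.7% and above in 9.84%. At an unadjusted p under 0.05 there were 14 of the 36 genes, 11 lower and 3 higher, beside 17.4% of all genes tested. Of the 36 genes, 34 were in the fit of genes that share no sequence, where 1.31% of 13159 genes were called. In edgeR, Clu alone passed in that fit, where 0.433% of genes were called lower and 0.874% higher. DESeq2 on the same genes called 7 of the 34, all lower, where it called 4.34% of genes, 1.72% lower. The 7 were Prodh, Slc7a10, Gja1, Gjb6, Cldn10, Gpr37l1 and Clu. In edgeR's fit of these genes 15 of the 34 had an unadjusted p under 0.05, beside 14.9% of its genes. In bulk tissue, fewer astrocytes and less RNA per astrocyte cannot be told apart.

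**Figure D1:**
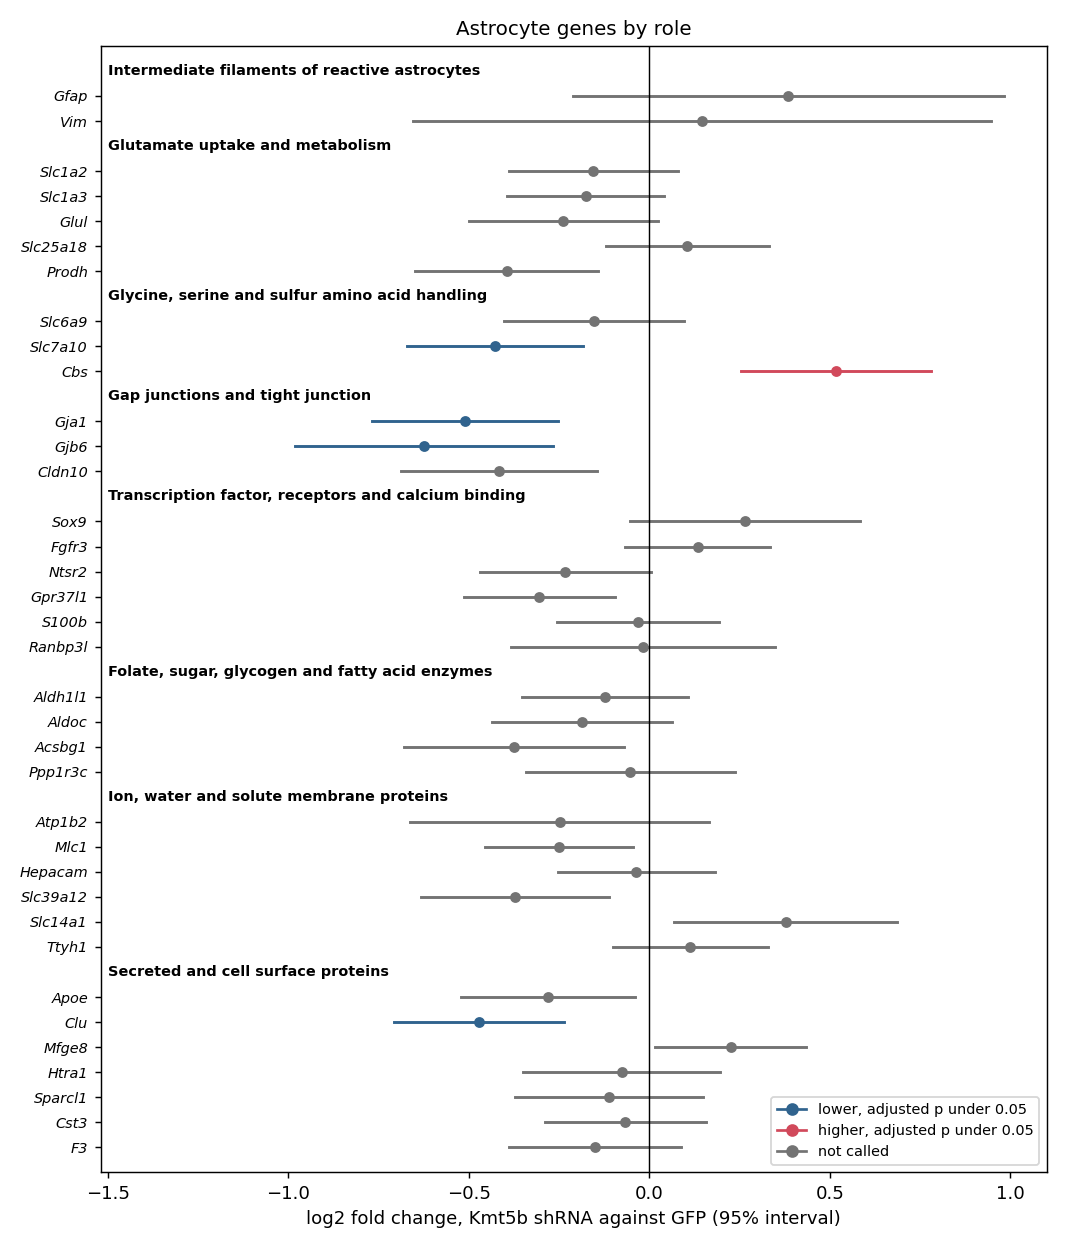
Log2 fold change of each of the 36 genes, Kmt5b shRNA against GFP, grouped by role, with points for the estimate and bars for its 95% interval. Blue and red points mark genes called lower and higher at an adjusted p under 0.05. The 3 junction genes and the 4 enzymes of folate, sugar, glycogen and fatty acids all lie below 0, and the intervals of Gfap and Vim are wide.

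None of the 5 genes of glutamate uptake and metabolism was called by edgeR, DESeq2 or limma voom in the fit of all genes, and 1 had an unadjusted p under 0.05. Their median log2 fold change was -0.18. Slc1a2, which encodes GLT-1, the main glutamate transporter of the forebrain, was at 2988, 2784 and 2967 CPM in the GFP libraries and 2546, 2884 and 2417 CPM in the Kmt5b shRNA libraries. The groups overlapped, because Kmt5b shRNA replicate 2 lay above GFP replicate 2. The Slc1a2 log2 fold change was -0.16 ± 0.11 (SE), with a 95% interval from -0.39 to 0.08 and an edgeR adjusted p of 0.554. The interval runs from 23.6% below the GFP level to 5.54% above it.

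Slc1a3, which encodes GLAST, the other astrocyte glutamate transporter, was at 628.0, 611.5 and 608.4 CPM in the GFP libraries and 566.7, 578.3 and 490.1 CPM in the Kmt5b shRNA libraries. Every GFP library was above every Kmt5b shRNA library, but the edgeR adjusted p for Slc1a3 was 0.433 at a log2 fold change of -0.18 (95% interval -0.39 to 0.04). Glul encodes glutamine synthetase, which turns glutamate into glutamine. Glul was at 1651, 1487 and 1337 CPM against 1345, 1372 and 1075 CPM, and the groups overlapped. The Glul log2 fold change was -0.24 (95% interval -0.50 to 0.02), with an edgeR adjusted p of 0.351. Glul shares sequence with its copy Glns-ps1, and with the copy's counts added the change was -0.27 (edgeR adjusted p = 0.356). Leaving out Kmt5b shRNA replicate 3 moved the log2 fold change to -0.09 for Slc1a2, -0.10 for Slc1a3 and -0.12 for Glul, and leaving out GFP replicate 1 moved Glul to -0.16.

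Prodh encodes proline dehydrogenase, a mitochondrial enzyme on the path from proline to glutamate. It was at 25.9, 26.0 and 22.6 CPM in the GFP libraries and 21.6, 18.4 and 16.6 CPM in the Kmt5b shRNA libraries, with no overlap. The Prodh log2 fold change was -0.40 ± 0.12 (SE), and its edgeR adjusted p of 0.0537 just missed the threshold. Prodh passed under 6 of its alternative settings, the lowest p being 0.0204 without a filter on low counts. DESeq2 also called Prodh lower among genes that share no sequence, where edgeR did not. Slc25a18, a mitochondrial glutamate carrier gene, was at 54.7, 54.8 and 45.5 CPM against 60.4, 52.5 and 53.8 CPM. For Slc25a18 the groups overlapped, and the log2 fold change was 0.11 (edgeR adjusted p = 0.717), or 0.02 without GFP replicate 3 and 0.04 with Kmt5b shRNA replicate 1 left out.

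**Figure D2:**
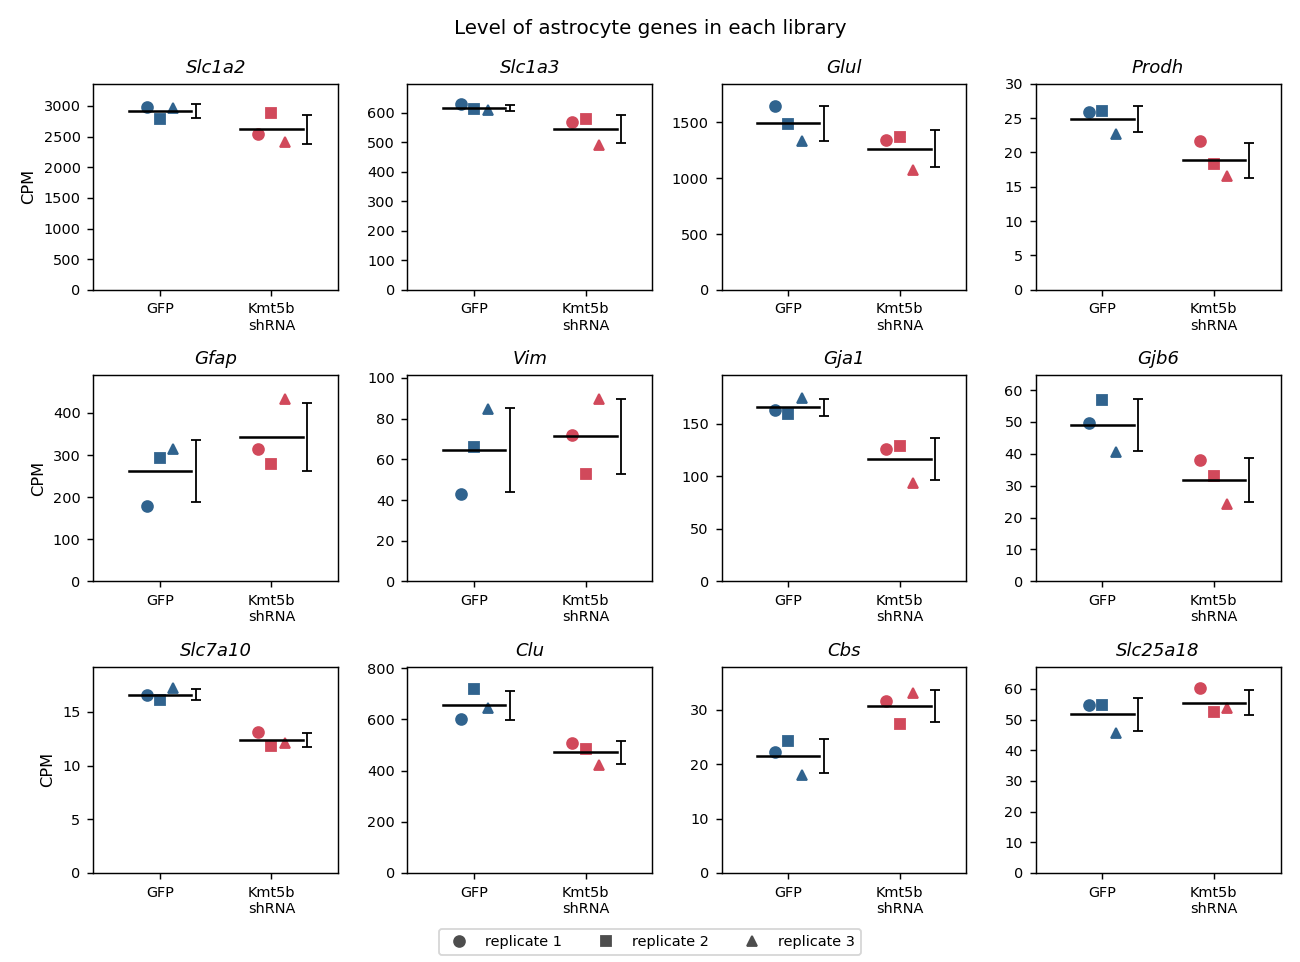
CPM of 12 of the genes in each of the 6 libraries, with 1 panel per gene and an axis that starts at 0. Marker shapes give the replicate, lines the group mean and bars the SD over 3 libraries. Gja1, Gjb6, Slc7a10 and Clu are separated downward and Cbs upward, and each was called. Slc1a3 and Prodh are also separated downward but were not called in edgeR's fit of all genes. Gfap and Vim overlap across a wide range.

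Outside the 36 genes, a list of 22 genes of the glutamate and glutamine cycle (other transporters, glutaminases, transaminases and glutamate dehydrogenase among them) had 1 gene higher and 2 lower, with a median of -0.11. That was 13.6% of the list, beside 8.46% of all genes tested. Gls2, a glutaminase gene, was at 22.5, 27.5 and 19.2 CPM in the GFP libraries and 16.9, 16.4 and 15.5 CPM in the Kmt5b shRNA libraries, with no overlap. Its log2 fold change was -0.50 (edgeR adjusted p = 0.0231). Gpt, an alanine transaminase gene, was at 10.5, 13.2 and 10.7 CPM against 9.22, 7.47 and 7.13 CPM, with an edgeR adjusted p of 0.0450 and a log2 fold change of -0.53. Got2, the mitochondrial aspartate transaminase gene, was higher by 0.34 on the log2 scale, with an edgeR adjusted p of 0.0408. Adding the counts of copies gave Got2 an adjusted p of 0.152. Each of these calls was lost in 4 of the 6 fits that left out 1 library, with adjusted p up to 0.131 for Gls2, 0.202 for Gpt and 0.194 for Got2. The fits that passed left out GFP replicate 1 for all 3 genes, and GFP replicate 3 for Gls2, Kmt5b shRNA replicate 1 for Gpt and Kmt5b shRNA replicate 3 for Got2. None of the list passed in the edgeR fit of genes that share no sequence, where 5 of 18 had an unadjusted p under 0.05, beside 14.9% of that fit, and DESeq2 called 2, beside 4.34%.

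Gfap encodes the intermediate filament protein that rises in reactive astrocytes. It was at 179.1, 292.5 and 315.1 CPM in the GFP libraries and 315.1, 279.6 and 432.4 CPM in the Kmt5b shRNA libraries. The highest control library equalled the middle Kmt5b shRNA library to 1 decimal, and the highest GFP value was 1.76 times the lowest. The Gfap log2 fold change was 0.39 ± 0.25 (SE), with a 95% interval from -0.21 to 0.98 and an edgeR adjusted p of 0.545. Leaving out GFP replicate 1 gave 0.17 and leaving out Kmt5b shRNA replicate 3 gave 0.19. In edgeR without the filter on low counts the adjusted p was 0.0441, and Gfap passed in only this 1 of 17 alternative settings. The adjusted p was 0.219 in DESeq2 and 0.334 in limma voom.

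Vim, which encodes vimentin, was at 43.0, 66.1 and 84.7 CPM in the GFP libraries and 72.1, 52.6 and 89.4 CPM in the Kmt5b shRNA libraries. The groups overlapped over most of their range. The Vim log2 fold change was 0.14 ± 0.32 (SE), with an edgeR adjusted p of 0.898, and the change was -0.08 with GFP replicate 1 left out and -0.04 with Kmt5b shRNA replicate 3 left out. Within the GFP group the coefficient of variation was 32.3% for Vim and 27.8% for Gfap, against 1.71% for Slc1a3, 3.23% for Mlc1 and 3.29% for Slc7a10.

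Reactive astrocyte genes were read in 3 lists: 13 genes shared by several kinds of injury, Gfap and Vim among them, 12 of inflammation and 12 of ischemia. Of the shared list, 2 genes were higher and 1 was lower, with a median of 0.22. Of all genes tested, 2.77% were called higher and 5.69% lower. Hspb1, a small heat shock protein gene, was at 2.72, 2.02 and 1.24 CPM in the GFP libraries and 8.54, 4.76 and 8.08 CPM in the Kmt5b shRNA libraries, with no overlap. Its log2 fold change was 1.84 (edgeR adjusted p = 0.000803), and 1.66 with 0.0047 after the counts of its copy were added. Cxcl10, a chemokine gene, was higher by 0.81 with an edgeR adjusted p of 0.0123. Cxcl10 lost its call when GFP replicate 2 (0.0622), GFP replicate 3 (0.0560) or Kmt5b shRNA replicate 3 (0.0737) was left out. Aspg, an asparaginase gene, was at 4.08, 7.00 and 5.13 CPM against 2.58, 3.06 and 2.57 CPM. The Aspg log2 fold change was -0.97 (edgeR adjusted p = 0.0102), and the call was lost when GFP replicate 2 (0.0726) or Kmt5b shRNA replicate 1 (0.0598) was left out. Among genes that share no sequence, Cxcl10 (0.0780) and Aspg (0.0608) did not pass in edgeR, and Hspb1 was not in that fit. DESeq2 on the same genes called Cxcl10 higher and Aspg lower, in a fit where it called 4.34% of genes.

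Of the 12 inflammation genes, 1 was lower and none higher in edgeR, with a median of -0.32. That was 8.33% of the list, beside 8.46% of all genes tested. DESeq2 called 3 lower, Serping1, Ggta1 and C3, and limma voom called 2, Serping1 and C3. Over all genes tested, DESeq2 called 9.89% and limma voom 8.36%. The gene called by edgeR was Serping1, the C1 complement inhibitor gene, at 13.2, 12.7 and 23.2 CPM in the GFP libraries and 7.33, 5.51 and 6.76 CPM in the Kmt5b shRNA libraries. Its log2 fold change was -1.33 (edgeR adjusted p = 0.00179), and it passed in all 6 fits that left out 1 library, but in 3 of 6 among genes that share no sequence, with p up to 0.140. Of the 12 ischemia genes 11 were tested, Slc10a6 being too low, and none passed edgeR's test. Of the 11, 3 had an unadjusted p under 0.05, beside 17.4% of all genes tested. DESeq2 and limma voom each called 1 ischemia gene, Ptgs2, higher. The ischemia genes with the smallest p were S100a10, with a log2 fold change of 0.32 and an edgeR adjusted p of 0.0884, and Emp1, with 0.74 and 0.207. The median of the ischemia list was 0.24. Taking the 3 lists as 1, 2 genes were higher and 2 lower among 36 tested, or 11.1%, beside 8.46% of all genes tested. Their median was -0.06, beside -0.15 for the 36 astrocyte genes, and Gfap and Vim are in both sets. Without Gfap and Vim, the 34 reactive genes tested had a median of -0.11. The difference between reactive and astrocyte identity genes was not tested.

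**Figure D3:**
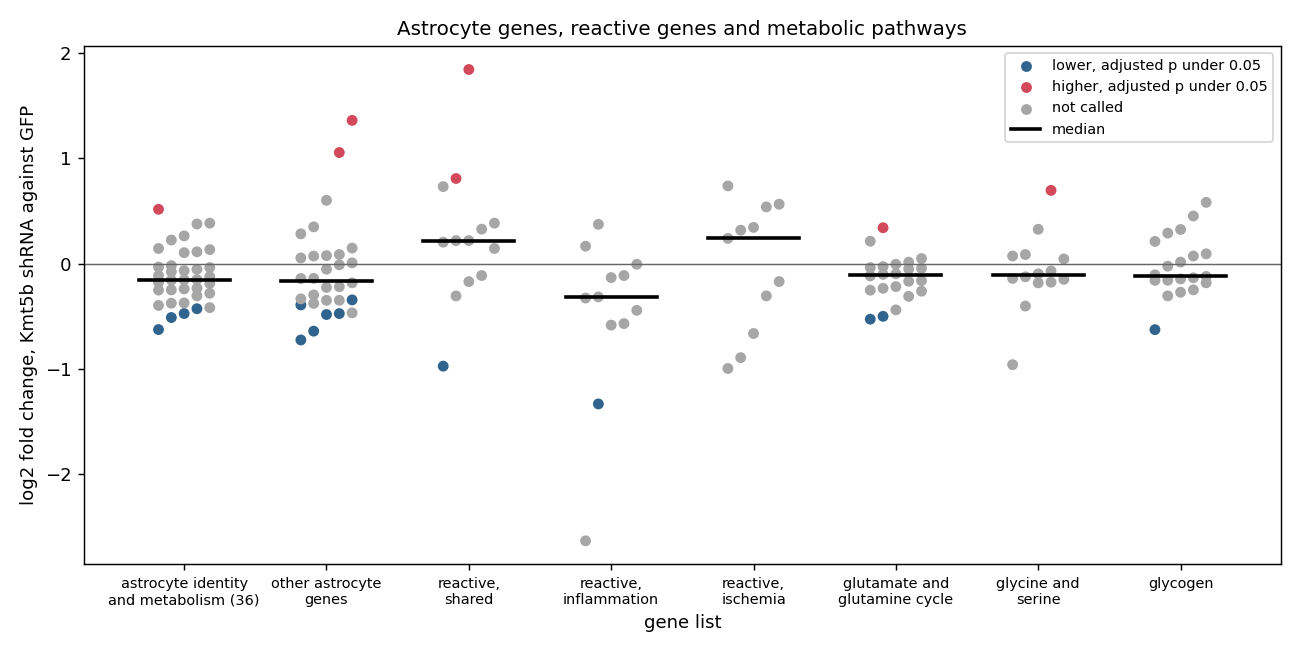
Log2 fold change of each gene in 8 lists, Kmt5b shRNA against GFP, with 1 point per gene and a bar at the list's median. Colours mark genes called at an adjusted p under 0.05. Medians lie between -0.32 for the inflammation genes and 0.24 for the ischemia genes, and every list but the ischemia genes holds at least 1 called gene.

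Of the 3 junction genes, 2 were called lower and none higher, and in all 3 every GFP library lay above every Kmt5b shRNA library. Of all genes tested, 5.69% were called lower and 12.7% had the Kmt5b shRNA libraries below without overlap. Among genes that share no sequence, edgeR called none of the 3 and DESeq2 called all 3 lower, beside 1.72% of genes in that fit. Gja1 encodes connexin 43, the main gap junction protein of astrocytes. It was at 163.2, 159.1 and 174.4 CPM in the GFP libraries and 126.4, 129.0 and 93.3 CPM in the Kmt5b shRNA libraries, lowest in replicate 3. The mean fell from 165.6 ± 7.92 CPM to 116.2 ± 19.9 CPM (SD, n = 3 each), or by -0.51 ± 0.12 on the log2 scale (SE, 95% interval -0.77 to -0.25). The edgeR adjusted p for Gja1 was 0.0114, and it was 0.0510 among genes that share no sequence. Leaving out GFP replicate 3 gave 0.0533 and leaving out Kmt5b shRNA replicate 3 gave 0.0614, and Gja1 passed in the other 4 such fits.

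Gjb6 encodes connexin 30, the other large astrocyte connexin. It was at 49.6, 56.8 and 40.7 CPM in the GFP libraries and 37.9, 33.2 and 24.2 CPM in the Kmt5b shRNA libraries, so the groups were separated by a narrow gap. The Gjb6 log2 fold change was -0.63 ± 0.16 (SE), the lowest of the 36 genes, with an edgeR adjusted p of 0.0334. The adjusted p was 0.0943 among genes that share no sequence, and the call held in 2 of the 6 fits that left out 1 library. Of the GFP group, leaving out replicate 1 (0.132) or 2 (0.138) ended the call, and of the Kmt5b shRNA group leaving out replicate 2 (0.151) or 3 (0.0609) did. Cldn10, a claudin gene of tight junctions, was at 18.1 to 23.6 CPM against 14.6 to 17.8 CPM. Its log2 fold change was -0.42 (edgeR adjusted p = 0.0609), and it passed under 6 of its alternative settings.

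The start regions of Gja1 and Gjb6 are printed here because these genes fell together, and those of Slc7a10 and Cbs because these genes of amino acid handling were called in opposite directions. Each runs from 250 bases before to 50 bases after the gene's start, 5′ to 3′ on the gene's strand, in RefSeq's GRCm38.p6. Capitals mark a match to TGANTCA, the AP-1 motif.
Gja1 promoter, chr10:56377050-56377349, plus strand: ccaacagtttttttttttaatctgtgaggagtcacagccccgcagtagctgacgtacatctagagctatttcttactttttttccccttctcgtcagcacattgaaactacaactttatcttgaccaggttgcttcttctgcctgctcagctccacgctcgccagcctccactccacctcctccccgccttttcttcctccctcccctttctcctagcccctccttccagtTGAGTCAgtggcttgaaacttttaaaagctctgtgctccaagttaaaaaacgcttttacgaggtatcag
Gjb6 promoter, chr14:57133562-57133861, minus strand: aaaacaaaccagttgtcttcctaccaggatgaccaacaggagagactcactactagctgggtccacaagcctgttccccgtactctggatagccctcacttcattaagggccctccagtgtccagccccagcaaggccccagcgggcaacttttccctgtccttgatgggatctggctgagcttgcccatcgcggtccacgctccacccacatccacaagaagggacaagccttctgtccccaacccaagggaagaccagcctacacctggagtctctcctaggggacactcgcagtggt
Slc7a10 promoter, chr7:35186135-35186434, plus strand: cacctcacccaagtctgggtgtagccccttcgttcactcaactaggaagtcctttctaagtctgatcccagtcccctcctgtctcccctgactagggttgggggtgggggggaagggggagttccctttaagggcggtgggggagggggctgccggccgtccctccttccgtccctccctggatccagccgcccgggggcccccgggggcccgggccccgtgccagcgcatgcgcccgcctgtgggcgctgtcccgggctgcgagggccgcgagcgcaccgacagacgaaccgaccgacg
Cbs promoter, chr17:31637156-31637455, minus strand: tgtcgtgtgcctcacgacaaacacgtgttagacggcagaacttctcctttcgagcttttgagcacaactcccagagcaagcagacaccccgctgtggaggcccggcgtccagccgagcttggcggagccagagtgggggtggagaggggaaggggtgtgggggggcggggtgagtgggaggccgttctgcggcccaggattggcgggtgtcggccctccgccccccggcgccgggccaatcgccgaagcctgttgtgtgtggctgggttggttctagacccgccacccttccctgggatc

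Gja1 held 1 AP-1 match, at position -19 from the start, and the other 3 regions held none. AP-1 matches were found in 7.81% of all 32851 promoters of this length and in 2 of the 38 promoters listed for 31 of the 36 genes. The searches on both strands for STAT (TTCNNNGAA), SOX (ACAAT) and the NFI site (TTGGCA) found no match in these 4 regions. Among all promoters these motifs were found in 8.3%, 31% and 14.1%, and among the 38 in 6, 6 and 4. GC content was 47.7% for Gja1, 57.3% for Gjb6, 70.7% for Slc7a10 and 66.7% for Cbs, beside a median of 52.7% over all promoters. The connexin regions thus differ in base content and motif content.

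Among the 3 genes of glycine, serine and sulfur amino acids, 1 was lower, 1 higher and 1 not called. Over all genes tested, 5.69% were called lower and 2.77% higher. Slc7a10 encodes Asc-1, which moves glycine and serine. It was at 16.5, 16.1 and 17.2 CPM in the GFP libraries and 13.1, 11.9 and 12.1 CPM in the Kmt5b shRNA libraries, tight within each group and without overlap. The Slc7a10 log2 fold change was -0.43 ± 0.11 (SE), with an edgeR adjusted p of 0.0276. The edgeR call was lost in all 6 fits that left out 1 library, with adjusted p from 0.0521 to 0.108, and among genes that share no sequence (0.0759). DESeq2 called Slc7a10 lower among genes that share no sequence. Of the 2111 exonic bases of Slc7a10, 377 lie opposite exons of Lrp3, whose log2 fold change was 0.25 (edgeR adjusted p = 0.179). Whether the counting used strand is not given in the sources used here.

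Cbs encodes cystathionine beta-synthase, which links homocysteine to cysteine and hydrogen sulfide. It was at 22.3, 24.2 and 18.0 CPM in the GFP libraries and 31.6, 27.3 and 33.2 CPM in the Kmt5b shRNA libraries, each above every control. The Cbs mean rose from 21.5 ± 3.21 CPM to 30.7 ± 3.005 CPM (SD, n = 3 each), or by 0.52 ± 0.12 on the log2 scale (SE, 95% interval 0.25 to 0.78). The edgeR adjusted p for Cbs was 0.0129, and leaving out GFP replicate 3 (0.0770) or Kmt5b shRNA replicate 1 (0.0668) ended the call. Cbs shares sequence with Rdh16 and Vmn1r218 and so was not in the fit of genes that share none. Slc6a9, the GlyT1 glycine transporter gene, was at 16.3, 17.2 and 17.4 CPM against 14.0, 14.9 and 16.9 CPM. The Slc6a9 log2 fold change was -0.15 (edgeR adjusted p = 0.598), and 1429 of its 5141 exonic bases lie opposite Ccdc24.

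Of 15 further genes of glycine and serine metabolism 14 were tested, 1 was higher and none lower, with a median of -0.11. That was 7.14% of the 14, beside 8.46% of all genes tested. The higher gene was Phgdh, the first enzyme of serine synthesis, at 22.0, 21.6 and 24.0 CPM against 37.0, 40.7 and 31.9 CPM. Its log2 fold change was 0.70 (edgeR adjusted p = 0.000402). With the counts of its intronless copies added, the Phgdh change was -0.16 with an adjusted p of 0.593, so the direction turned.

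None of the 6 genes for a transcription factor, receptors and calcium binding was called in the fit of all genes. This held for edgeR, DESeq2 and limma voom. Of the 6, 1 had an unadjusted p under 0.05 in edgeR, beside 17.4% of all genes tested. Gpr37l1, an orphan receptor gene, was at 161.5 to 183.8 CPM in the GFP libraries and 131.6 to 148.5 CPM in the Kmt5b shRNA libraries. The Gpr37l1 log2 fold change was -0.30 (edgeR adjusted p = 0.0777). Sox9, a transcription factor gene of astrocyte identity, was at 8.62 to 12.3 CPM against 11.4 to 13.9 CPM, with a log2 fold change of 0.26 (adjusted p = 0.416 in edgeR). The groups overlapped for Sox9, for Fgfr3, a fibroblast growth factor receptor gene (0.13), and for Ntsr2, a neurotensin receptor gene (-0.23). S100b, a calcium binding protein gene, and Ranbp3l differed by -0.03 and -0.02.

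The 4 enzyme genes all had a log2 fold change below 0, with a median of -0.15. None of the 4 was called by edgeR, DESeq2 or limma voom. In edgeR 1 had an unadjusted p under 0.05, beside 17.4% of all genes tested. Acsbg1, which activates long fatty acids, was at 114.8 to 169.8 CPM in the GFP libraries and 91.4 to 118.5 CPM in the Kmt5b shRNA libraries, with an edgeR adjusted p of 0.155 and a log2 fold change of -0.37. Aldoc, the brain aldolase of glycolysis, differed by -0.19 and Aldh1l1, a folate enzyme and common astrocyte marker, by -0.12. Ppp1r3c, which targets a phosphatase to glycogen, differed by -0.05. Of 20 further genes of glycogen metabolism, 1 was lower and none higher, with a median of -0.11. That was 5% of the list, beside 8.46% of all genes tested. The lower gene was Pygm, a glycogen phosphorylase, at 19.3, 19.0 and 17.8 CPM against 14.0, 12.9 and 9.57 CPM, with no overlap. The Pygm log2 fold change was -0.63 (edgeR adjusted p = 0.00771), or 0.0460 among genes that share no sequence, and it passed in all 6 fits of all genes that left out 1 library, but in 0 of 6 among genes that share no sequence.

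Of the 6 genes for ion, water and solute membrane proteins, none was called by edgeR, DESeq2 or limma voom in the fit of all genes, and 3 had an unadjusted p under 0.05. Slc39a12, a zinc transporter gene, was at 46.1 to 62.3 CPM in the GFP libraries and 37.2 to 43.4 CPM in the Kmt5b shRNA libraries, and its log2 fold change was -0.37 (edgeR adjusted p = 0.0853). Mlc1, a membrane protein gene of the perivascular endfeet, was at 138.9 to 147.2 CPM against 108.3 to 125.0 CPM, with a log2 fold change of -0.25 and an edgeR adjusted p of 0.160. Slc14a1, a urea transporter gene, went the other way without overlap, at 11.7 to 16.8 CPM against 17.0 to 21.2 CPM. The Slc14a1 log2 fold change was 0.38 (edgeR adjusted p = 0.156). Hepacam, the partner of Mlc1, differed by -0.04, Atp1b2, a sodium pump subunit gene, by -0.25 and Ttyh1, a chloride channel gene, by 0.11, with overlap in each.

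Of the 7 genes for secreted and cell surface proteins, Clu alone was called, or 14.3%, beside 8.46% of all genes tested. Clu encodes clusterin, an apolipoprotein and chaperone. It was at 603.4, 717.8 and 642.8 CPM in the GFP libraries and 508.1, 486.0 and 421.0 CPM in the Kmt5b shRNA libraries. The Clu mean fell from 654.7 ± 58.1 CPM to 471.7 ± 45.3 CPM (SD, n = 3 each) with no overlap, or by -0.47 ± 0.11 on the log2 scale (SE, 95% interval -0.71 to -0.24). The edgeR adjusted p for Clu was 0.0107, and 0.0452 among genes that share no sequence. Leaving out GFP replicate 2 (0.0647) or Kmt5b shRNA replicate 3 (0.0703) ended the call. Among genes that share no sequence, Clu passed in 1 of the 6 fits that left out 1 library.

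Apoe encodes apolipoprotein E, the main lipid carrier secreted by astrocytes. It was at 1005, 1235 and 1020 CPM in the GFP libraries and 965.7, 837.9 and 880.8 CPM in the Kmt5b shRNA libraries. The groups did not overlap, but the edgeR adjusted p for Apoe was 0.188 at a log2 fold change of -0.28. Mfge8, which tags cells for uptake, lay the other way at 137.1 to 150.6 CPM against 157.1 to 181.0 CPM, with a log2 fold change of 0.23 and an edgeR adjusted p of 0.235. The groups overlapped for Sparcl1, a matrix protein gene (-0.11), F3, the tissue factor gene (-0.15), Htra1, a secreted protease gene (-0.08), and Cst3, the cystatin C gene (-0.07).

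**Figure D4:**
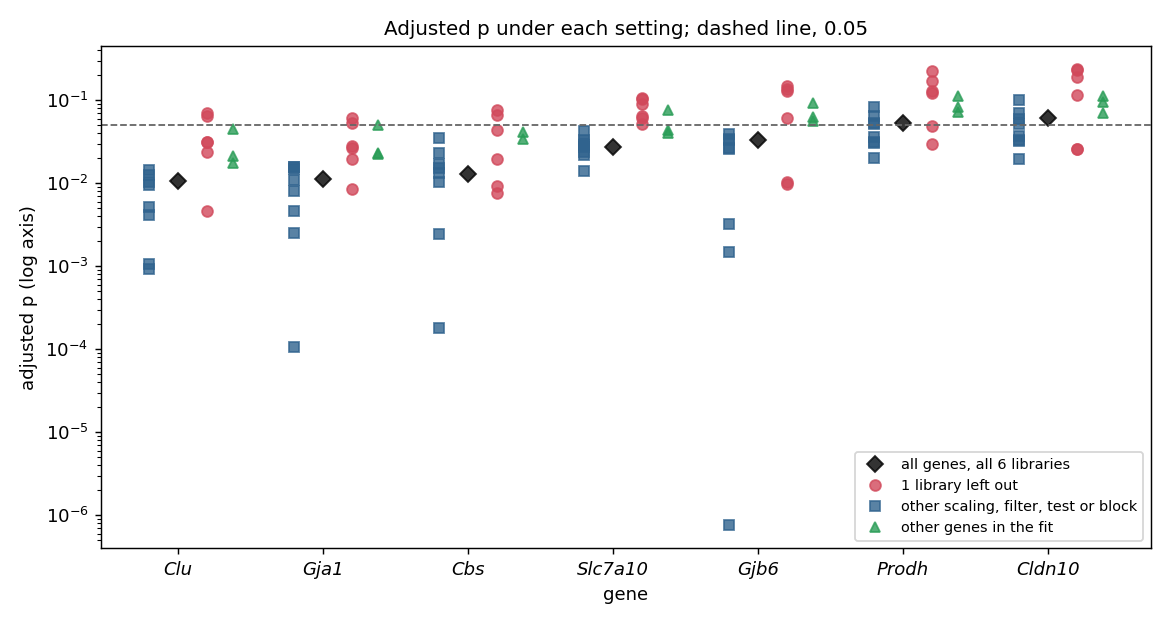
Adjusted p of 7 genes on a log axis under each setting, with the dashed line at 0.05. Diamonds are the fit of all genes in all 6 libraries, circles leave out 1 library, squares use another scaling, filter, test or block, and triangles use other genes in the fit. The circles lie on both sides of the line for 6 of the 7 genes and all above it for Slc7a10.

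Levels were set beside each other as CPM per kilobase of exons, over the GFP libraries. Sparcl1 was highest at 712, followed by Apoe at 508, Glul at 449 and Cst3 at 446 CPM per kilobase. The ranges of Apoe and Glul overlapped, as did those of Glul and Cst3, so their order is not resolved. Slc1a2 at 222 and Aldoc at 213 also overlapped. The mean of Clu followed at 190 CPM per kilobase, and its range overlapped that of Aldoc. Gfap at 62.2 CPM per kilobase had a range that overlapped those of Slc1a3 at 72.2 and S100b at 59.1, so its place among them is not resolved. Gjb6 at 18.3 and Gja1 at 16.1 CPM per kilobase overlapped with Aldh1l1 and Slc39a12 between them, and the lowest means were Cbs at 2.87, Sox9 at 2.50 and Ranbp3l at 1.45. The range of Cbs overlapped those of Prodh and Sox9. All 36 genes were thus detected in tissue labelled prefrontal cortex.

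The libraries differed in how often they held the extreme value. Kmt5b shRNA replicate 3 was the lowest of the 6 libraries for 18 of the 36 genes, while replicates 1 and 2 were lowest for 1 and 6. The GFP libraries were lowest for 3, 3 and 5 genes. Relative to the GFP mean, the median log2 level of the 36 genes was 0.03, 0.03 and -0.08 for the GFP replicates, beside -0.10, -0.12 and -0.23 for the Kmt5b shRNA replicates. Without Kmt5b shRNA replicate 3 the median log2 fold change of the 36 genes was -0.09, and 1 gene was called. Without GFP replicate 2 the log2 fold change was -0.20 for Acsbg1, -0.21 for Slc39a12 and -0.17 for Apoe.

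Markers of other cells were read beside these genes. None of the 10 neuron markers was called by edgeR, DESeq2 or limma voom and none had an unadjusted p under 0.05. Their median was -0.06 and their summed level 9315 to 11163 CPM in the GFP libraries and 9070 to 10399 CPM in the Kmt5b shRNA libraries. All 10 oligodendrocyte markers lay below 0, with a median of -0.42 and summed levels of 2929 to 4520 CPM against 1617 to 3416 CPM. edgeR called none of these 10, and DESeq2 and limma voom each called 1, Mog, beside 9.89% and 8.36% of all genes tested. In edgeR 1 of the 10 had an unadjusted p under 0.05, beside 17.4% of all genes tested. Of 6 precursor markers, Olig2 was higher by 0.54 with an edgeR adjusted p of 0.0211, and their summed level was 214.6 to 237.7 CPM against 224.8 to 264.0 CPM. Olig2 alone of the 6 was called in edgeR, or 16.7%, beside 8.46% of all genes tested. Olig2 lost its call when GFP replicate 2 (0.0514), GFP replicate 3 (0.114) or Kmt5b shRNA replicate 3 (0.118) was left out.

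None of the 8 microglia, 7 endothelial or 5 mural markers was called by edgeR, DESeq2 or limma voom, and none had an unadjusted p under 0.05. Their summed levels were 487.8 to 632.6 CPM against 510.9 to 658.0 CPM for microglia, 240.6 to 266.9 against 250.01 to 274.9 for endothelium, and 245.5 to 273.2 against 257.3 to 272.3 for mural cells. The choroid plexus and ependyma markers summed to 5.55 to 9.47 CPM against 6.09 to 10.2 CPM, with Folr1 too low to test. The 5 fibroblast markers summed to 54.2 to 87.7 CPM against 44.5 to 63.5 CPM. In these last lists edgeR called none, 1 in each had an unadjusted p under 0.05, DESeq2 called Ttr and Dcn lower, and limma voom called Dcn. For all genes tested the shares were 17.4% at that unadjusted p, 9.89% in DESeq2 and 8.36% in limma voom. The part of other cells in the values of the astrocyte genes was not tested.

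Among 30 other genes of astrocytes, outside the 36, 2 were higher and 6 lower, with a median of -0.16. That was 26.7% of the list, beside 8.46% of all genes tested. The list was chosen with earlier results of these data known, so its share of calls cannot be read as a result about astrocyte genes at large. The higher genes were Fabp7, a fatty acid binding protein gene, with a log2 fold change of 1.36 (edgeR adjusted p = 1.35e-07), and Agt, the angiotensinogen gene, with 1.06 (adjusted p = 0.000846). Of the lower genes, Sdc4, a syndecan gene, changed by -0.72 (edgeR adjusted p = 0.000311) and Aqp4, the endfoot water channel gene, by -0.64 (adjusted p = 0.00178). Daam2, a Wnt pathway gene, was at 50.2, 49.3 and 53.8 CPM in the GFP libraries and 36.6, 35.9 and 37.1 CPM in the Kmt5b shRNA libraries, with no overlap. Its log2 fold change was -0.48 (edgeR adjusted p = 0.00225), and it passed in all 6 fits that left out 1 library, but in 2 of 6 among genes that share no sequence, with p up to 0.110. In that fit Aqp4 passed in 1 of 6 and Agt in 4 of 6. Slc4a4, a bicarbonate cotransporter gene, changed by -0.39 (edgeR adjusted p = 0.0224). Slc4a4 lost its call when GFP replicate 3 (0.105) was left out, and also with replicate 1 (0.0558) or 3 (0.147) of the Kmt5b shRNA group left out. The other lower genes were Pla2g7 and Mt3. Mt3 lost its call in all 6 fits that left out 1 library, with adjusted p from 0.0539 to 0.181. Pla2g7 lost its call without GFP replicate 2 (0.141) and with replicate 1 (0.116) or 3 (0.123) of the Kmt5b shRNA group left out. In the edgeR fit of genes that share no sequence, 2 of the 30 were higher and 3 lower, and Slc4a4, Pla2g7 and Mt3 did not pass. DESeq2 on the same genes called 2 higher and 7 lower, with Slc4a4, Pla2g7 and Mt3 among the lower. Of all genes that share no sequence, edgeR called 0.874% higher and 0.433% lower. DESeq2 called 4.34% of them, 1.72% lower.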

How the data were processed

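Bulk total RNA from prefrontal cortex was measured in 3 GFP and 3 Kmt5b shRNA libraries, grouped by sample title. Stranded, ribosome-depleted libraries were read on a HiSeq and aligned to RefSeq mRNAs with TopHat2 after trimming with Cutadapt, per the labels' protocols. STAR, featureCounts, DESeq2 and mm10 are named per the submitters' processing notes, so 2 aligners are named. The authors deposited unnormalized read counts by gene symbol, in 54429 rows, of which 53717 matched a symbol of GENCODE M21.

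The test was that of edgeR 4.0.16, run in R 4.3.3 on these counts (filterByExpr with its minimum of 10 counts, TMM, robust quasi-likelihood fit with legacy=TRUE), unpaired over all 6 libraries, with Benjamini-Hochberg adjustment over all genes tested and a threshold of 0.05. CPM values use TMM library sizes. SE is that of the log2 fold change, and intervals are at 95%. A second fit held protein-coding genes with no match of at least 200 bases at 90% identity to another gene, found with BLAST+ 2.17.0. Alternatives were other scalings and filters, DESeq2 1.42.0, limma 3.58.1 voom, the replicate block, other gene sets (copies added to their parents, or coding genes only) and leaving out each library. The fit was tested on simulated data. Same-numbered libraries did not deviate together in every pair, with correlations of -0.04, -0.05 and 0.31 for replicates 1, 2 and 3.

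The members and lists were chosen with earlier results of these data known. All 36 members are named, with CPM in each library for those that passed in either fit, for glutamate handling and for Gfap and Vim. Of each other list, genes that passed are named, up to 4 of smallest p in each direction, or the 2 of smallest p where none passed. Promoters are from RefSeq in GRCm38.p6 and were listed for 31 of the 36. Those not listed are Atp1b2, Clu, Slc14a1, Sox9 and Sparcl1.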

Additional observations from a re-analysis of the deposited data

How the results depend on the processing

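Across the alternatives, 556 recomputed log2 fold changes of single members kept their direction and side of the threshold, 21 gained a call, 21 lost one and 12 turned sign. The signs turned in 7 members, none of them called, and only where 1 library was left out. Over those fits Vim ran from -0.078 to 0.39, S100b from -0.077 to 0.055, Ranbp3l from -0.20 to 0.16, Ppp1r3c from -0.17 to 0.14, Hepacam from -0.076 to 0.031, Htra1 from -0.22 to 0.055 and Cst3 from -0.12 to 0.012.

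The 5 members called became 8 with upper quartile scaling, 9 with total counts, 10 without a filter on low counts, 8 with the replicate block and 1 among genes that share no sequence. They became 1 to 5 when 1 library was left out, with 1 left when Kmt5b shRNA replicate 3 was out and 2 when GFP replicate 2 was. Among genes that share no sequence, the 1 member called became 7 with DESeq2, stayed at 1 with the replicate block and ran from 0 to 2 when 1 library was left out. The 172 genes called in that fit became 571 with DESeq2 and 49 to 299 when 1 library was left out, the 49 coming without Kmt5b shRNA replicate 1 and the 299 without GFP replicate 1. The 2066 calls over all genes became 172 among genes that share no sequence, 818 with copies added to their parents and 651 with coding genes only, which are fits of fewer genes or other counts.

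The 4 reactive genes called became 7 without a filter, 7 with DESeq2 and 1 among genes that share no sequence. The 3 glutamate cycle genes became 1 with limma voom, 0 among genes that share no sequence, 1 with copies added and 0 to 3 when 1 library was left out. The 1 glycine and serine gene became 2 without a filter, 2 with DESeq2, 0 among genes that share no sequence, 0 with copies added and 1 to 2 when 1 library was left out. The 1 glycogen gene became 2 with total counts and 1 to 2 when 1 library was left out. The 8 other astrocyte genes became 13 without a filter, 5 among genes that share no sequence and 5 to 8 when 1 library was left out. The cause of these shifts was not tested.

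Replicate numbers are shared between the groups, but same-numbered libraries did not deviate together in every pair, and GFP replicate 1 deviated most with Kmt5b shRNA replicate 2 (0.33). With 3 libraries in each group the calls of single members are sensitive to each library.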

Other observations

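C3, the complement component gene that is often read as a marker of inflammatory reactive astrocytes, is named here after its values were seen. It was at 29.8, 36.5 and 58.2 CPM for the GFP replicates and 3.78, 4.71 and 11.6 CPM for the Kmt5b shRNA replicates. Every GFP library lay above every Kmt5b shRNA library. The log2 fold change was -2.63 ± 0.58 (SE), with an adjusted p of 0.0917 in edgeR, 6.68e-05 in DESeq2 and 0.00018 in limma voom. In edgeR, C3 passed in 1 of the 6 fits that left out a library, at 0.00989 without Kmt5b shRNA replicate 3. C3 is also made by cells other than astrocytes, and their part in this value was not tested.

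Ggta1, an inflammation list gene also named after its values were seen, was at 8.63, 13.2 and 14.3 CPM for the GFP replicates and 8.07, 8.11 and 7.87 CPM for the Kmt5b shRNA replicates. The log2 fold change was -0.58, with an adjusted p of 0.0505 in edgeR, 0.0231 in DESeq2 and 0.138 in limma voom. When 1 library was left out the edgeR adjusted p ran from 0.00198 to 0.255, and it passed in 1 of those 6 fits, without GFP replicate 1.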
